A study of Mus musculus with 14 samples.

Results

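Pdgfra, Pdgfrb, Acta2, Des, Lrat, Reln, Dcn, Lum, Postn and Rgs5, marker genes of stellate cells, pericytes and fibroblasts, the matrix-producing and vessel-supporting cells of the liver, were followed in mouse liver tumours. They are 10 of the 77981 genes in the count table and were taken by symbol. All 10 were found, and 9 had enough counts to be tested across all genes (Des did not). RNA of 14 tumour libraries had been counted by a 3′ messenger RNA method. Per the labels, 5 libraries came from tumours of Cdk18 knockout mice (CDK18KO), 4 from tumours of mice lacking both Cdk16 and Cdk18 (DKO) and 5 from tumours of wild-type mice (WT). CDK16 and CDK18 are related cyclin-dependent kinases. All tumours had been started by hydrodynamic injection of plasmids for c-Myc and β-catenin, and were taken at a diameter of 15 mm, at signs of distress or at 8 weeks. Floxed Cdk16 was deleted after tumours had formed, with a tamoxifen-inducible Cre (Cre-ERT2) and tamoxifen at 75 mg/kg for 5 days, and tissue was taken 10 days later. The protocol names Cre-ERT2 controls that also received tamoxifen. Whether these were the WT animals, the CDK18KO animals or both, the promoter of the Cre, and the age, sex and strain of the mice are not given in the sources used here. Loss of Cdk16 in the DKO group therefore cannot be told apart from Cre and tamoxifen.

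Hepatic stellate cells sit beside the sinusoids and, at rest, store vitamin A as retinyl esters. After injury they can become contractile, matrix-producing myofibroblasts, a change driven by platelet-derived growth factor (PDGF) and TGF-β. Pericytes wrap small vessels, and portal and tumour fibroblasts deposit collagen and proteoglycans. In bulk tumour RNA, fewer cells of a type and less RNA of a gene per cell cannot be told apart.

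Total counts ran from 1442417 in WT 5 to 6068209 in WT 2, and 1 count was worth 0.771 and 0.137 CPM in these libraries. CPM are counts scaled to a common library total over tested genes, with TMM factors. The libraries are described as biological replicates, so p-values measure the spread between tumours. The targeted gene Cdk18 had few counts everywhere and averaged 1.98 ± 1.06 CPM in CDK18KO (SD, n = 5), 1.90 ± 1.51 CPM in DKO (n = 4) and 4.76 ± 3.58 CPM in WT (n = 5), with overlapping groups. Cdk16 averaged 40.6 ± 14.3 CPM in CDK18KO, 30.8 ± 15.4 CPM in DKO and 49.1 ± 7.32 CPM in WT. No source used here says whether the deletions reach the counted 3′ ends, so these values check no label. Hepatocyte genes, 15 of 15 tested, summed to 1529 to 17799 CPM in CDK18KO, 2402 to 27594 CPM in DKO and 205 to 4699 CPM in WT, so the tissue label matches their presence in every library. Gfap, a stellate cell gene, had no count in CDK18KO or WT. Y-linked genes summed to 348 CPM in CDK18KO 1, 204 CPM in WT 3 and 788 CPM in WT 5, and to at most 33.0 CPM in each of the other 11, so the groups are not balanced in this. CDK18KO 1 also stood apart from the other CDK18KO libraries in 4 markers, so the markers' comparisons with CDK18KO and the counts over lists are also given without it. This choice was made after the markers' values were seen. Leaving out a library high in these markers lowers their CDK18KO values by itself, so those fits are no independent result.

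Pdgfra, Pdgfrb and Postn had the lowest fold changes of CDK18KO over WT among the markers, and RefSeq promoters (build GRCm38.p6) were given for 7 of the 10 markers, Pdgfra and Postn among them. The 250 bases upstream of the start are shown for these 2 genes, since they were low together in the knockout libraries. Pdgfra lies at chr5:75152292-75198215 and Postn at chr3:54361109-54391037 in GRCm38, both protein-coding and on the plus strand, and the bases shown are chr5:75152001-75152250 and chr3:54360857-54361106. Capitals mark the motif found.
Pdgfra: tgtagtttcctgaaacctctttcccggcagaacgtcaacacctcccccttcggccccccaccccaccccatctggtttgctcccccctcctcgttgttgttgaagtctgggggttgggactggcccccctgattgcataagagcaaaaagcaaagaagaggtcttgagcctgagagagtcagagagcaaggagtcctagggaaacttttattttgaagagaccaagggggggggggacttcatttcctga
Postn: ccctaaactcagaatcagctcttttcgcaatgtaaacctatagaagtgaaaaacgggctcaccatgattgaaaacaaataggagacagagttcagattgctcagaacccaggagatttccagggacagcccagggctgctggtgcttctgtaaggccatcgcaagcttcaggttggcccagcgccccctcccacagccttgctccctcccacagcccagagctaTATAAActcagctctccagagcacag
Both strands were searched for TATAAA (the TATA box), TGANTCA (AP-1), GGAATG (TEAD), GGGCGG (SP1) and the CArG box of serum response factor, the last with 1 G or C allowed in its 6-base core. Postn held TATAAA, 26 bases upstream of the start, a motif found in 12.4% of 32851 promoters, and Pdgfra held none of the 5. TGANTCA stood in 6.75% of promoters, GGAATG in 12.6%, GGGCGG in 32.7% and the CArG box in 8.59%. The 2 windows thus share none of the motifs searched, which says nothing about the factors that act there.

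The PDGF receptors stood lowest in CDK18KO tumours. Pdgfra, the receptor that marks fibroblasts and stellate cells, had 13.7, 1.06, 6.21, 1.65 and 1.85 CPM in CDK18KO 1 to 5, 9.14, 5.63, 20.4 and 6.67 CPM in DKO 1 to 4, and 21.1, 15.8, 15.1, 29.0 and 56.3 CPM in WT 1 to 5. Every CDK18KO library lay below every WT library, as for 1.60% of all genes. DKO 3 lay inside the WT range and the other 3 DKO libraries below it. The means were 4.89 ± 5.32 CPM in CDK18KO, 10.5 ± 6.78 CPM in DKO and 27.5 ± 17.1 CPM in WT. The log2 fold change of CDK18KO over WT was -2.44 (SE 0.67), with an adjusted p of 0.162 in edgeR's quasi-likelihood test with Benjamini-Hochberg adjustment, which is not past the threshold of 0.05. Without CDK18KO 1 it was -3.27 and past the threshold (edgeR adjusted p = 0.0474), as for 0.536% of all genes. Over all fits that left out 1 library it ran from -3.27 to -2.01, with edgeR adjusted p of 0.0474 to 0.408. DKO differed from WT by -1.36 (SE 0.70, edgeR adjusted p = 0.305).

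Pdgfrb, the receptor for PDGF-BB on pericytes and activated stellate cells, gave the same order of group means. It had 6.83, 3.19, 6.21, 0 and 1.39 CPM in CDK18KO 1 to 5, 8.29, 7.89, 10.4 and 7.22 CPM in DKO 1 to 4, and 38.2, 8.93, 15.7, 28.4 and 22.4 CPM in WT 1 to 5. The CDK18KO libraries lay below all WT libraries, as for 1.60% of all genes, and below all DKO libraries, as for 0.872%. DKO overlapped WT only through DKO 3 and WT 2. The means were 3.53 ± 2.97 CPM in CDK18KO, 8.44 ± 1.35 CPM in DKO and 22.7 ± 11.3 CPM in WT. CDK18KO differed from WT by -2.65 (SE 0.70, edgeR adjusted p = 0.162) and by -3.04 without CDK18KO 1 (edgeR adjusted p = 0.0603). Over all fits that left out 1 library, the edgeR adjusted p ran up to 0.408. DKO differed from WT by -1.42 (SE 0.71, edgeR adjusted p = 0.297) and from CDK18KO by 1.23 (SE 0.71, edgeR adjusted p = 0.948), or 1.62 without CDK18KO 1 (edgeR adjusted p = 0.621).

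Postn encodes periostin, a matrix protein made by activated fibroblasts. It had 11.2, 5.85, 3.42, 0.330 and 2.32 CPM in CDK18KO 1 to 5, 10.0, 1.69, 15.2 and 12.2 CPM in DKO 1 to 4, and 49.3, 7.83, 16.3, 94.8 and 96.4 CPM in WT 1 to 5. WT 1, 3, 4 and 5 lay above all 9 knockout libraries, whereas WT 2 lay inside the range of both knockout groups. The means were 4.62 ± 4.18 CPM in CDK18KO, 9.78 ± 5.80 CPM in DKO and 52.9 ± 41.9 CPM in WT. CDK18KO differed from WT by -3.49 (SE 0.85, edgeR adjusted p = 0.162), or -4.17 without CDK18KO 1 (edgeR adjusted p = 0.0552). Over all fits that left out 1 library, the edgeR adjusted p ran up to 0.403. In DKO the difference from WT was -2.41 (SE 0.87, edgeR adjusted p = 0.166).

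These 3 genes were past the threshold by another tool, though with few counts in CDK18KO. Over its 5 libraries Pdgfra had 75 counts, Pdgfrb 51 and Postn 64, against 389, 341 and 672 in WT. DESeq2 gave adjusted p = 0.0109 for Pdgfra, 0.00334 for Pdgfrb and 0.00221 for Postn in CDK18KO over WT, and 0.0470 for Postn in DKO over WT. For the mean of CDK18KO and DKO over WT, the log2 fold changes were -1.90 (SE 0.55) for Pdgfra, -2.03 (SE 0.56) for Pdgfrb and -2.95 (SE 0.67) for Postn, each with an edgeR adjusted p of 0.111. DESeq2 adjusted p values there were 0.0149, 0.00521 and 0.00150, in the same order. The comparisons with WT share the WT libraries. With Y-linked expression as a covariate, the CDK18KO over WT values were -2.0, -2.43 and -3.02, with edgeR adjusted p of 0.540 to 0.623. DKO over WT was then -0.29 for Pdgfra, -0.95 for Pdgfrb and -1.26 for Postn.

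**Figure D1:**
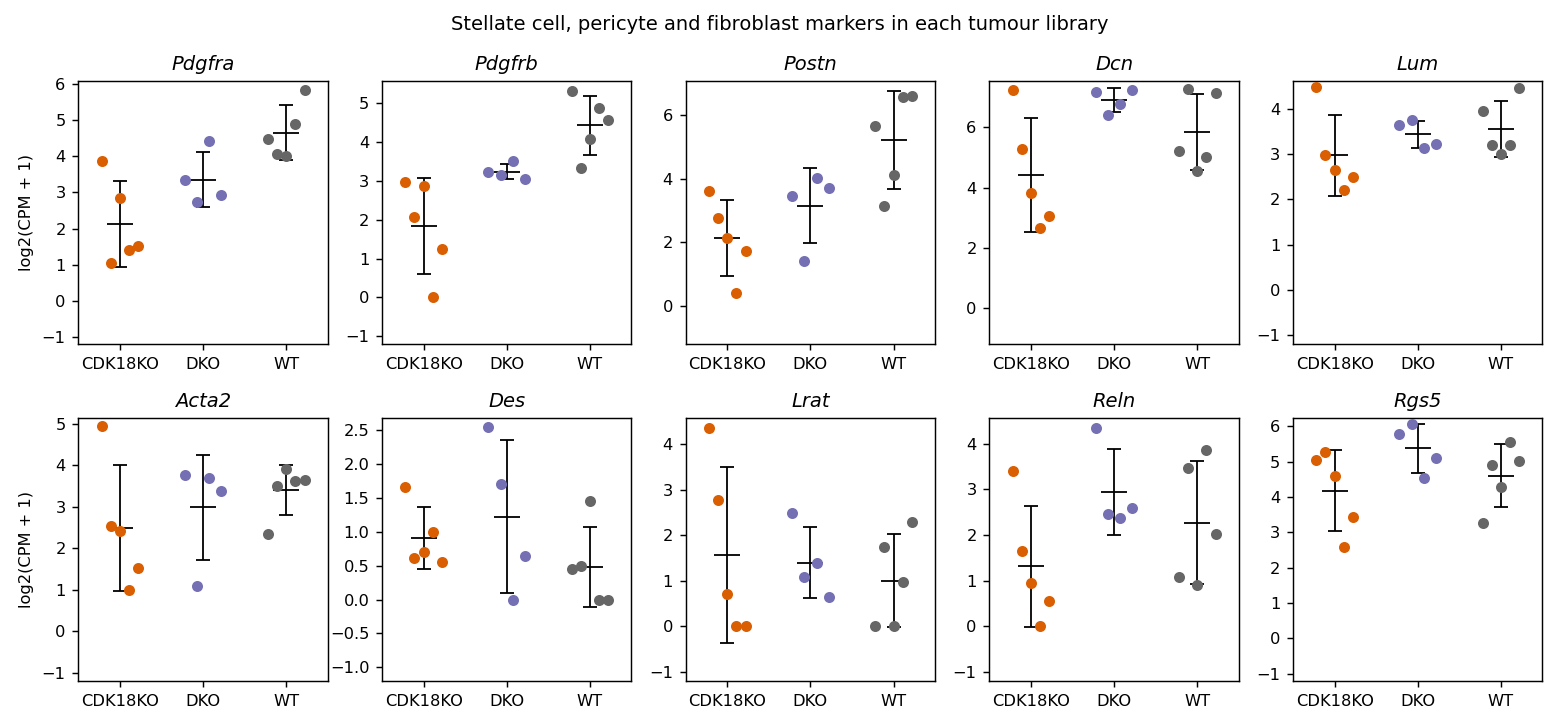
Each panel plots 1 marker as log2(CPM + 1), with 1 point per library for CDK18KO (n = 5), DKO (n = 4) and WT (n = 5) and bars for the mean ± SD. Pdgfra and Pdgfrb of CDK18KO lie wholly below WT, as for 1.60% of all genes, with means of 4.89 and 3.53 CPM against 27.5 and 22.7 CPM. CDK18KO and WT overlap in the other panels.

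The small leucine-rich proteoglycans among the markers overlapped between all genotypes. Dcn encodes decorin, which binds collagen fibrils. It had 153, 38.3, 13, 5.28 and 7.41 CPM in CDK18KO 1 to 5, 145, 84.0, 109 and 152 CPM in DKO 1 to 4, and 36.3, 154, 22.7, 31.2 and 142 CPM in WT 1 to 5. All 4 DKO libraries were high, 2 WT libraries were high and 3 low, and CDK18KO 1 alone was high in its group. The means were 43.3 ± 62.5 CPM in CDK18KO, 123 ± 31.9 CPM in DKO and 77.3 ± 65.0 CPM in WT. CDK18KO differed from WT by -0.83 (SE 0.82, edgeR adjusted p = 0.632), and by -2.28 (SE 0.70, edgeR adjusted p = 0.0826) without CDK18KO 1. The value of DKO over WT was 0.67 (SE 0.86, edgeR adjusted p = 0.687). Against CDK18KO, DKO differed by 1.5 (SE 0.87, edgeR adjusted p = 0.948), or 2.95 (edgeR adjusted p = 0.163) without CDK18KO 1.

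Lum encodes lumican, a proteoglycan of the same family whose gene (chr10:97565128-97572703) lies 47.0 kb from Dcn (chr10:97479609-97518143). It had 21.4, 6.91, 5.28, 3.63 and 4.63 CPM in CDK18KO 1 to 5, 11.4, 12.4, 7.77 and 8.34 CPM in DKO 1 to 4, and 14.5, 8.11, 6.99, 8.19 and 20.8 CPM in WT 1 to 5. CDK18KO 1 was the highest library of all, and the other 4 CDK18KO libraries lay below every DKO and WT library. The log2 fold change of CDK18KO over WT was -0.45 (SE 0.50, edgeR adjusted p = 0.672), or -1.18 (edgeR adjusted p = 0.115) without CDK18KO 1. For DKO over WT it was -0.21 (SE 0.53, edgeR adjusted p = 0.848).

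The contractile marker Acta2, the smooth muscle actin of myofibroblasts and vessel walls, had 29.8, 4.79, 4.35, 0.991 and 1.85 CPM in CDK18KO 1 to 5, 12.6, 1.13, 12 and 9.45 CPM in DKO 1 to 4, and 4.08, 10.3, 14.0, 11.3 and 11.6 CPM in WT 1 to 5. The group means lay close together at 8.36 ± 12.1 CPM in CDK18KO, 8.78 ± 5.28 CPM in DKO and 10.3 ± 3.70 CPM in WT, with CDK18KO 1 far above the rest of its group. The log2 fold change was -0.28 in CDK18KO over WT (SE 0.79, edgeR adjusted p = 0.883), or -1.77 (edgeR adjusted p = 0.124) without CDK18KO 1. DKO differed from WT by -0.21 (SE 0.84, edgeR adjusted p = 0.912).

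Des encodes desmin, an intermediate filament of stellate cells in rodents and of muscle. It had 7, 1, 2, 3 and 1 counts in CDK18KO 1 to 5, 17, 4, 0 and 1 counts in DKO 1 to 4, and 1, 3, 6, 0 and 0 counts in WT 1 to 5. The groups overlapped, and an exact two-sided permutation test on log2(CPM + 1) gave p = 0.246 for CDK18KO against WT (smallest possible 0.00794) and 0.246 for DKO against WT (smallest possible 0.0159). Of the 22 DKO counts, 17 came from DKO 1. Striated muscle genes summed to 455 and 167 CPM in DKO 1 and DKO 2, the DKO libraries with most Des, against 30.7 CPM or less in every other library. CDK18KO 1 had 1.24 CPM of muscle genes beside its 7 Des counts. Over groups, the 15 muscle genes summed to 1.24 to 30.7 CPM in CDK18KO, 9.71 to 455 CPM in DKO and 2.84 to 7.42 CPM in WT, with Myh2, Myh4, Myh6, Myh7 and Tnnt3 at 0 in CDK18KO and Actc1, Myh1, Myh4 and Mb at 0 in WT. The part of muscle RNA in the Des counts was not tested.

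Markers of resting stellate cells were near the limit of detection in many libraries. Lrat, the enzyme that makes retinyl esters, had 19.3, 5.85, 0.621, 0 and 0 CPM in CDK18KO 1 to 5, 4.57, 1.13, 1.62 and 0.556 CPM in DKO 1 to 4, and 0, 2.34, 0, 0.945 and 3.86 CPM in WT 1 to 5. Lrat was at 0 in 2 CDK18KO and 2 WT libraries, and CDK18KO 1 held 62 of the 75 CDK18KO counts. CDK18KO differed from WT by 1.94 (SE 1.30, edgeR adjusted p = 0.470), DKO from WT by 0.62 (SE 1.38, edgeR adjusted p = 0.822) and DKO from CDK18KO by -1.31 (SE 1.35, edgeR adjusted p = 0.993). Without CDK18KO 1 the gene had too few counts to be tested.

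Reln encodes reelin, a secreted glycoprotein of stellate cells and lymphatic endothelium. It had 9.63, 2.13, 0.932, 0 and 0.463 CPM in CDK18KO 1 to 5, 19.4, 4.51, 4.21 and 5.00 CPM in DKO 1 to 4, and 1.11, 10.0, 0.873, 13.5 and 3.09 CPM in WT 1 to 5. One library stood far above its group in CDK18KO and in DKO, and 2 WT libraries were high and 3 low. Reln of CDK18KO differed from WT by -1.11 (SE 1.0, edgeR adjusted p = 0.598), or -2.76 (edgeR adjusted p = 0.128) without CDK18KO 1. In DKO over WT it was 0.52 (SE 1.02, edgeR adjusted p = 0.799), or -0.35 without DKO 1. Lymphatic and sinusoidal endothelial genes, 12 in all and 9 tested, summed to 235 to 645 CPM in CDK18KO, 267 to 637 CPM in DKO and 111 to 245 CPM in WT, with none at 0 in a whole group. Prox1, a transcription factor gene that hepatocytes also express, gave much of that sum, with a mean of 336 ± 160 CPM in CDK18KO, 224 ± 75.9 CPM in DKO and 88.7 ± 39.4 CPM in WT. Without Prox1 the sums were 33.7 to 222 CPM in CDK18KO, 75.4 to 314 CPM in DKO and 69.3 to 119 CPM in WT, and the groups overlapped. The part of these cells in the Reln values was not tested.

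Rgs5, a regulator of G-protein signalling that marks pericytes, had its highest mean in DKO. It had 31.7, 37.8, 23.0, 4.95 and 9.73 CPM in CDK18KO 1 to 5, 54.3, 65.9, 22 and 33.3 CPM in DKO 1 to 4, and 8.53, 29.0, 18.6, 45.7 and 31.6 CPM in WT 1 to 5. All groups overlapped. For Rgs5, CDK18KO differed from WT by -0.32 (SE 0.54, edgeR adjusted p = 0.793), DKO from WT by 0.72 (SE 0.57, edgeR adjusted p = 0.509) and DKO from CDK18KO by 1.03 (SE 0.57, edgeR adjusted p = 0.934). Without CDK18KO 1, CDK18KO differed from WT by -0.51 (edgeR adjusted p = 0.636) and DKO from CDK18KO by 1.22 (edgeR adjusted p = 0.672). In DKO over WT, Rgs5 and Pdgfrb, the other pericyte marker, thus had values of opposite sign, neither of them called by edgeR.

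**Figure D2:**
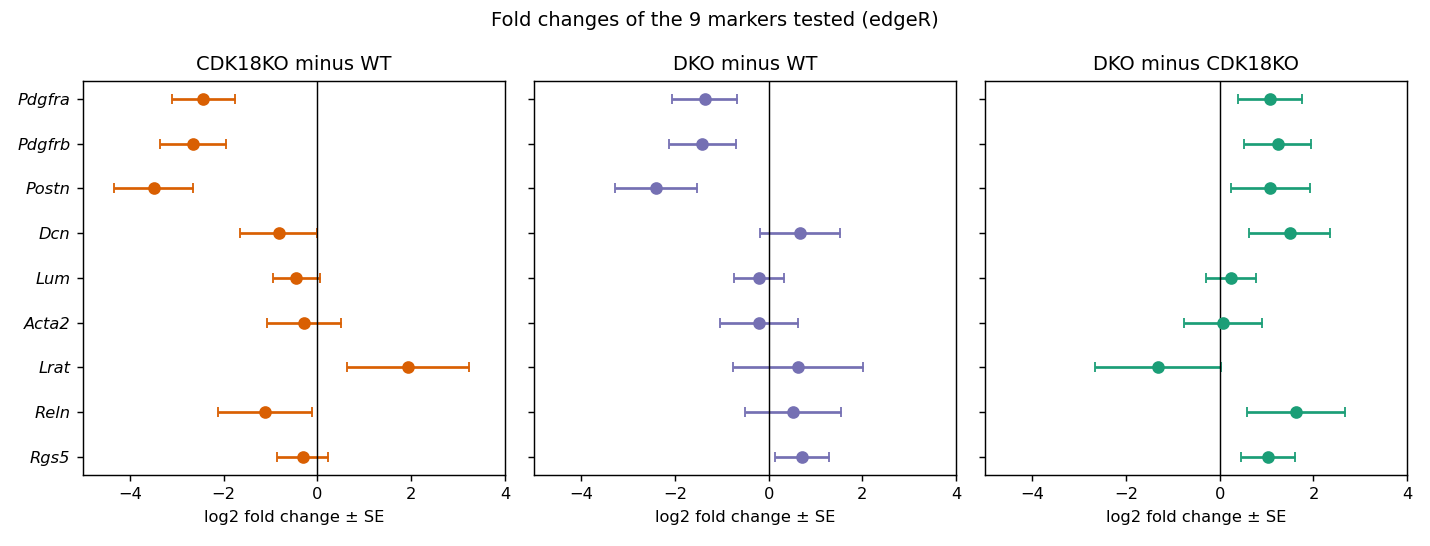
Points give the edgeR log2 fold change and bars the SE for the 9 markers tested, in 1 panel per comparison, with 0 as the vertical line. Postn, Pdgfrb and Pdgfra lie farthest below 0 for CDK18KO over WT, at -3.49, -2.65 and -2.44.

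Counted together, 0 of 9 markers were called in CDK18KO over WT by edgeR at an adjusted p under 0.05, where 0.00714% of 13997 genes were. At an unadjusted p under 0.05, 3 markers were lower and 0 higher, against 5.31% of all genes lower and 11.6% higher. The median log2 fold change was -0.83 over the markers and -0.01 over all genes, and 8 of 9 markers were negative against 50.6% of all genes. Groups did not overlap for 2 markers, both lower, as for 1.60% of all genes. DESeq2 called 3 markers, all lower, and 1.82% of its genes lower, while limma voom called 0. Without CDK18KO 1, 7 of the 8 markers then tested were lower at an unadjusted p under 0.05, against 9.74% of all genes, and 1 was called, against 0.536% of all genes. That library was left out for being high in several of these markers, so lower values follow in part from the choice. Without the 3 libraries high in Y-linked genes, 6 of 8 were lower, against 6.38% of all genes, and edgeR called 0 markers and 0% of all genes. CDK18KO 1 is 1 of those 3 libraries, and this fit too was chosen after seeing the data. The same limit holds for it, so it is no independent result.

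For DKO over WT, edgeR called 0 of 9 markers, where it called 0.00714% of all genes. At an unadjusted p under 0.05, 1 marker was lower and 0 higher, against 5.22% of all genes lower and 13.7% higher. The median was -0.21 over the markers and -0.04 over all genes, and DESeq2 called 1 marker and 1.13% of its genes lower. For DKO over CDK18KO, edgeR called 0 of 9 markers and 0% of all genes, with 0 markers under an unadjusted 0.05, against 5.80% of all genes, and DESeq2 called 0 markers and 0.603% of its genes. Of the 9 markers, 1 had a negative value there, against 51.8% of all genes, and the median was 1.07 against -0.02 over all genes. Groups did not overlap for Pdgfrb alone, higher in DKO, as for 0.872% of all genes. Without CDK18KO 1, 5 of the 8 markers then tested were higher at an unadjusted p under 0.05 in that comparison, against 6.15% of all genes, and edgeR called 0 markers and 0.0145% of all genes. This too follows in part from leaving out a library high in the markers. For the mean of both knockout groups over WT, edgeR called 0 of 9 markers and 0.0929% of all genes, 3 markers were lower and 0 higher at an unadjusted p under 0.05 against 7.08% and 14.2% of all genes, and DESeq2 called 3 markers and 2.07% of its genes lower.

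The level and the make-up of the marker signal both differed between libraries. The markers' CPM summed to 298, 106, 63.7, 17.8 and 30.1 in CDK18KO 1 to 5, 279, 186, 203 and 236 in DKO 1 to 4, and 174, 247, 112, 263 and 388 in WT 1 to 5. CDK18KO 4 was the lowest of all libraries for 7 of the 10 markers and CDK18KO 5 among the lowest 3 for 9, while CDK18KO 1 was the highest for 3. Pdgfra, Pdgfrb and Postn, grouped after their values were seen, made up 10.6, 9.50, 24.9, 11.1 and 18.5% of the sum in CDK18KO 1 to 5, 9.82, 8.16, 22.6 and 11.1% in DKO 1 to 4, and 62.6, 13.2, 42.1, 57.8 and 45.1% in WT 1 to 5. WT 2 was thus alone among WT libraries in the range of the knockouts, and CDK18KO 1, high in the summed CPM, was low in this share. Dcn made up a median of 29.6% of the sum in CDK18KO, 52.9% in DKO and 20.9% in WT, and Rgs5 32.3% in CDK18KO, 16.8% in DKO and 11.7% in WT. These shares compare libraries and are no measure of which gene is more abundant.

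**Figure D3:**
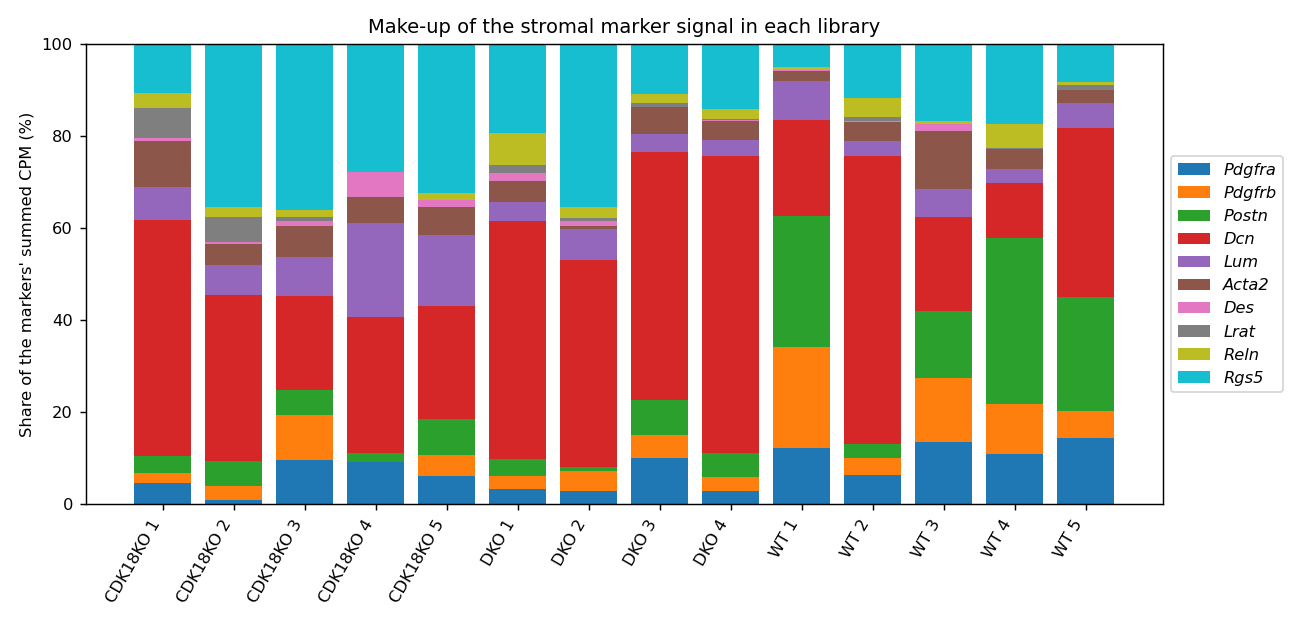
Stacked bars give each marker's share, in percent, of the markers' summed CPM in each of the 14 libraries. Pdgfra, Pdgfrb and Postn together fill 42.1 to 62.6% of the bar in 4 of 5 WT libraries (13.2% in WT 2) and 8.16 to 24.9% in the 9 knockout libraries.

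Likeness between genes was described by the mean absolute difference of their CPM ranks over the 14 libraries, where 0 is the same order. Over the 36 pairs of tested markers it ran from 1.29 to 4.64 with a median of 3.14. The most alike were Pdgfra and Postn (1.29), Pdgfra and Pdgfrb (1.43) and Pdgfrb and Postn (1.57), and the least alike Lrat and Postn (4.64). The ranks include the differences between genotypes, so this likeness is not separate from the fold changes above. Pairs of all tested genes are not given for comparison, and shared regulation was not tested. Among all other tested genes, the nearest to Pdgfra were 9530059O14Rik, Akr1b10 and the hedgehog co-receptor gene Boc (0.857 each). Nearest to Pdgfrb was the ephrin receptor gene Epha3 (0.857), then Srpx2 (1.0) and the semaphorin gene Sema3a (1.07). Among the genes near to Postn were the calcium channel gene Cacna1c (1.0) and Dnm3os (1.0), a non-coding RNA.

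The nearest genes of the other markers lay at 1.0 or more. Dcn had Gucy1a1 and Tnfrsf11b (1.29 each) and the collagen gene Col14a1 (1.57), and Lum had Cavin3 and Col1a2 (1.43 each) and Col25a1 (1.71). Acta2 had Prdm4 and Prdx2 (1.43 each) and Rab33a (1.5). Lrat had App and the endothelial receptor gene Lyve1 (1.43 each) and Stab2 (1.57), another sinusoidal endothelial receptor. Reln had Adam19, Gucy1b1 and Mug1 (1.71 each). Rgs5 had Il18bp (1.0), then Bend7 and Gm45338 (1.43 each).

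Wider lists of the same cell types had mostly lower values in CDK18KO, and no gene of any list was called by edgeR with all 14 libraries. The lists share genes with the 10 markers, so their counts are also given without those. At an unadjusted p under 0.05, 5.31% of all genes were lower and 11.6% higher in CDK18KO over WT. In DKO over WT these shares were 5.22% and 13.7%. DESeq2 called 1.82% of its genes lower in CDK18KO and 1.13% in DKO. Without CDK18KO 1, 9.74% of all genes were lower in CDK18KO and edgeR called 0.536%. Of 21 tested activated stellate cell and myofibroblast genes, 7 were lower and 0 higher at an unadjusted p under 0.05 in CDK18KO over WT (median -1.22), and 5 were called by DESeq2. Postn was among both counts, and Acta2 and Postn aside, 6 of 19 were lower (median -1.22) and DESeq2 called 4. Without CDK18KO 1, 12 of those 19 were lower (median -2.28) and edgeR called 5, named after their values were seen: the calponin gene Cnn2, the collagen gene Col3a1, Col6a3, Lox and Tnc. The collagen VI chain gene Col6a3 averaged 11.1 ± 9.21 CPM in CDK18KO, 21.2 ± 9.94 CPM in DKO and 69.5 ± 37.0 CPM in WT. It differed from WT by -2.63 (SE 0.56, edgeR adjusted p = 0.122) in CDK18KO. Lox, which cross-links collagen, differed by -2.60 (SE 0.72) and the matrix gene Tnc by -3.04 (SE 0.92), with edgeR adjusted p of 0.162 and 0.163. Without CDK18KO 1, Col6a3 differed by -3.27 (edgeR adjusted p = 0.0433). In DKO over WT the list had 2 lower and 1 higher (median -0.21, the value of Acta2 itself), or 1 lower and 1 higher (median -0.04) without Acta2 and Postn. The higher one was fibronectin, Fn1, at 630.2 ± 257 CPM in DKO and 199 ± 68.3 CPM in WT (log2 fold change 1.66, SE 0.50, edgeR adjusted p = 0.146). Its DKO values lay wholly above WT, as for 3.04% of all genes, and 13.7% of all genes were higher at the unadjusted level.

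Of 16 tested fibroblast and portal fibroblast genes, 7 were lower and 1 higher at an unadjusted p under 0.05 in CDK18KO over WT (median -1.31), and 0 in DKO over WT (median -0.23). Over all genes, 5.31% were lower and 11.6% higher in CDK18KO, and 5.22% and 13.7% in DKO. Pdgfra was 1 of the 7, and without the 3 markers on the list 6 of 13 were lower and 1 higher (median -1.33). Without CDK18KO 1 as well, 8 of 13 were lower and 1 higher (median -1.77), and edgeR called Thy1 alone. In that fit 9.74% of all genes were lower and 0.536% called. Thy1, a surface glycoprotein of portal fibroblasts, averaged 1.22 ± 0.375 CPM in CDK18KO, 6.18 ± 1.94 CPM in DKO and 8.42 ± 4.37 CPM in WT. It differed from WT by -2.76 (SE 0.45, edgeR adjusted p = 0.102) in CDK18KO and by -0.45 (SE 0.43, edgeR adjusted p = 0.582) in DKO. Its CDK18KO values lay wholly below WT, as for 1.60% of all genes. Sfrp1, a secreted Wnt inhibitor, differed by -3.92 in CDK18KO over WT, Fbln2 by -2.14 and Dpt by -2.91, all 3 matrix or secreted proteins, with edgeR adjusted p of 0.162 to 0.164. The higher gene, named after its values were seen, was Gsn (2.84, SE 0.97, edgeR adjusted p = 0.182), an actin-severing protein that many cell types make.

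Of 8 tested small leucine-rich proteoglycans, Dcn and Lum included, 8 had a negative value in CDK18KO over WT, 5 of them at an unadjusted p under 0.05 (median -1.84). Those 5 were among the 6 that are not markers (median -2.57). Over all genes, 5.31% were lower at that level and 50.6% had a negative value. Without CDK18KO 1, all 6 that are not markers were lower at that level (median -3.63), against 9.74% of all genes, with 0 called by edgeR. Aspn had 6 counts in CDK18KO, 35 in DKO and 154 in WT. It differed from WT by -4.69 (SE 0.99, edgeR adjusted p = 0.122) in CDK18KO, and Omd by -3.23 (SE 0.84, edgeR adjusted p = 0.162). Bgn, the biglycan gene, averaged 14.5 ± 9.50 CPM in CDK18KO, 50.1 ± 41.8 CPM in DKO and 63.6 ± 26.6 CPM in WT. In DKO over WT the list had 1 lower gene, against 5.22% of all genes, and a median of -0.28. The list's summed CPM was 257 in CDK18KO 1, 16.5 to 61.2 in the other CDK18KO libraries, 158 to 338 in DKO and 120 to 346 in WT.

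PDGF and TGF-β genes, 15 tested of 16 in the table, had 1 lower gene at an unadjusted p under 0.05 in CDK18KO over WT (median -0.72), against 5.31% of all genes. The lower gene was Ccn2, a TGF-β and YAP target, at 11.3 ± 9.36 CPM in CDK18KO, 36.9 ± 14.1 CPM in DKO and 58.8 ± 29.3 CPM in WT. Ccn2 of CDK18KO lay wholly below WT, as for 1.60% of all genes. Its log2 fold change was -2.36 (SE 0.59, edgeR adjusted p = 0.162). Without CDK18KO 1, 4 of the 15 genes were lower (median -0.94), against 9.74% of all genes. Ccn2 was then called (-2.97, edgeR adjusted p = 0.0469), as were 0.536% of all genes. In DKO over WT the list had 1 higher gene (median -0.20), against 13.7% of all genes. It was the ligand gene Pdgfb, at 13.3 ± 3.32 CPM in DKO and 6.13 ± 2.46 CPM in WT (log2 fold change 1.11, edgeR adjusted p = 0.247). The ligand and its receptor Pdgfrb thus had values of opposite sign in DKO, neither of them called by edgeR.

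Quiescent stellate cell genes, 9 tested of 17, had a median of -1.02 in CDK18KO and 0.52 in DKO. In each comparison with WT 1 gene was lower, against 5.31% (CDK18KO) and 5.22% (DKO) of all genes. That gene was Cygb, a globin of stellate cells, at 56.6 ± 84.6 CPM in CDK18KO, 31.5 ± 7.95 CPM in DKO and 220.4 ± 104 CPM in WT. It differed by -2.80 (SE 0.87, edgeR adjusted p = 0.146) in DKO and by -1.96 (SE 0.77, edgeR adjusted p = 0.220) in CDK18KO. Its DKO values lay wholly below WT, as for 2.46% of all genes. The CDK18KO mean rested on CDK18KO 1, at 205 CPM against 5.95 to 48.1 CPM in the other 4, whose mean was 19.5 ± 19.3 CPM. Without CDK18KO 1 the difference from WT was -3.49 and past the threshold (edgeR adjusted p = 0.0433), as for 0.536% of all genes. Lrat and Reln are on this list, and without them it had 1 lower gene of 7 in each comparison (medians -1.02 and 0.46). Without CDK18KO 1 as well, 3 of 6 were lower in CDK18KO (median -1.43), against 9.74% of all genes in that fit. Pericyte and vascular smooth muscle genes, 10 tested of 16, had 3 lower genes in CDK18KO (median -0.38) and 1 lower and 1 higher in DKO (median -0.06). Of all genes, 5.31% were lower in CDK18KO, and 5.22% lower and 13.7% higher in DKO. Pdgfrb was 1 of the 3 and the gene of the list that DESeq2 called in CDK18KO. Without Pdgfrb and Rgs5, 2 of 8 were lower in CDK18KO (median -0.38), and DESeq2 called 0. With CDK18KO 1 also left out, likewise 2 of 8 were lower (median -0.77), against 9.74% of all genes. Cspg4, the NG2 proteoglycan of pericytes, differed by -1.98 (SE 0.76) in CDK18KO and -2.21 (SE 0.84) in DKO, and the contractile kinase gene Mylk by 1.49 (SE 0.65) in DKO, with edgeR adjusted p of 0.177 to 0.233.

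**Figure D4:**
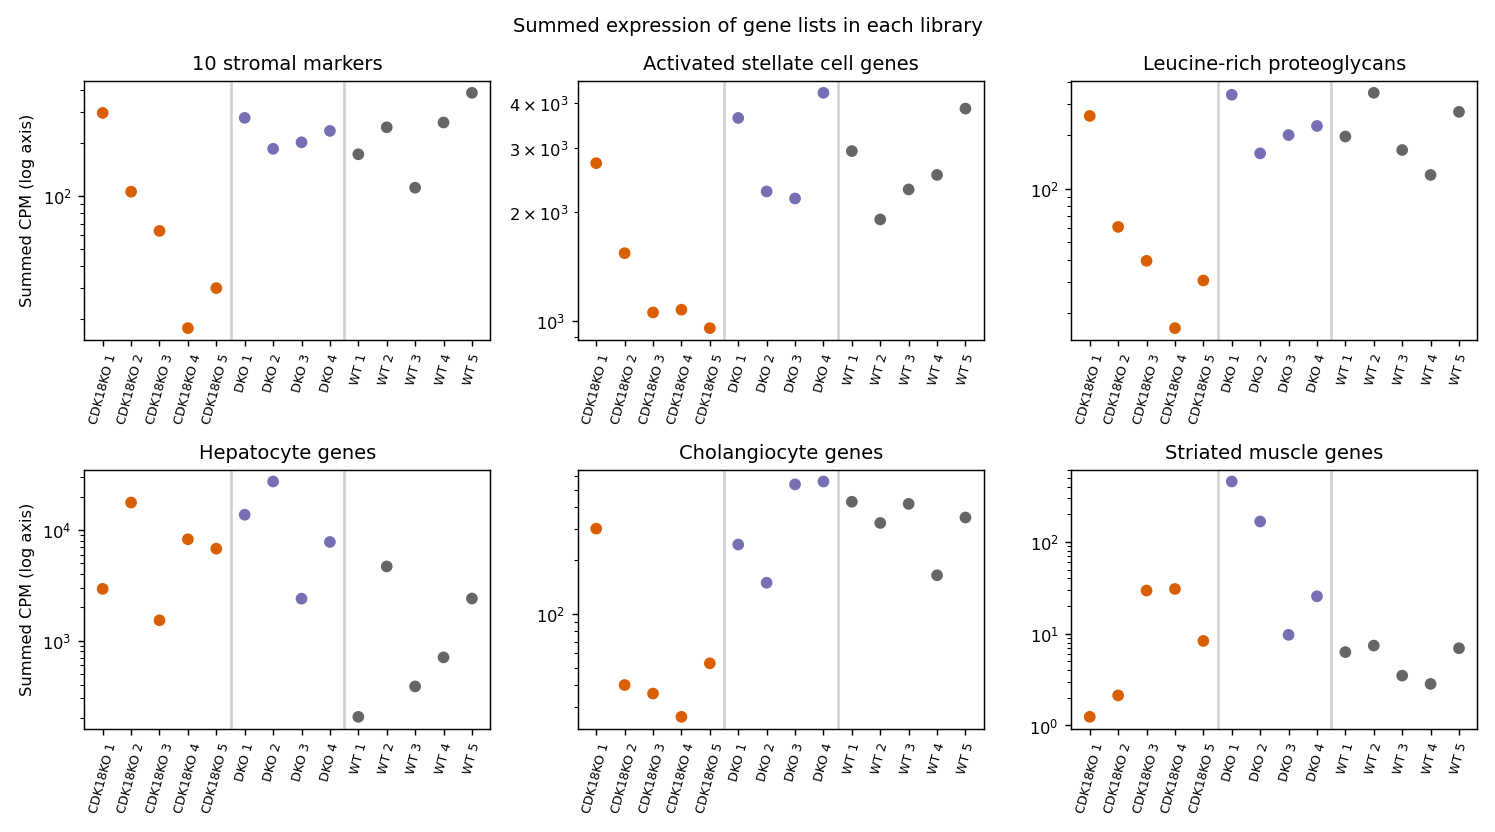
Each panel gives the summed CPM of 1 gene list in each of the 14 libraries, on a log axis, coloured by genotype. In the panels of the 10 markers, activated stellate cell genes and proteoglycans, CDK18KO 1 lies above the rest of its group (298, 2725 and 257 CPM), and hepatocyte genes reach 27594 CPM in DKO 2 against 205 CPM in WT 1.

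Genes of other cells were counted in the same way, with no gene called by edgeR with all 14 libraries. Over all genes, 5.31% were lower and 11.6% higher at an unadjusted p under 0.05 in CDK18KO over WT. In DKO over WT these shares were 5.22% and 13.7%. Of 15 tested hepatocyte genes, 10 were higher in CDK18KO over WT and 13 in DKO over WT at an unadjusted p under 0.05 (medians 2.56 and 3.30). DESeq2 called 7 of them higher in CDK18KO and 12 in DKO, where it called 6.14% and 7.41% of its genes in either direction. Without CDK18KO 1, 10 were higher and 1 lower in CDK18KO over WT (median 2.77), against 14% and 9.74% of all genes. Of 8 tested cholangiocyte genes, 5 were lower in CDK18KO (median -3.19), and their sum was 26.4 to 302 CPM in CDK18KO, 150 to 556 CPM in DKO and 165 to 428 CPM in WT, none at 0 in a whole group. Of the cholangiocyte genes, 0 were lower or higher in DKO over WT (median 0.47). DESeq2 called 4 of them lower in CDK18KO and 0 in DKO, against 1.82% and 1.13% of its genes. Without CDK18KO 1, 7 of the 8 were lower in CDK18KO (median -4.28), against 9.74% of all genes. In that fit edgeR called 1 of them, against 0.536% of all genes. CDK18KO 1 held its group's highest cholangiocyte sum (302 CPM), so these lower values follow in part from leaving it out. Macrophage genes, 9 tested of 12, had 0 lower or higher genes in CDK18KO (median -0.10) and 3 higher in DKO (median 0.96). Without CDK18KO 1, again 0 were lower or higher in CDK18KO (median -0.39). DESeq2 called 0 macrophage genes in both comparisons with WT. Mesothelial genes, 4 tested of 7, had 2 lower genes in CDK18KO and 3 higher in DKO, and summed to 2.97 to 5.85 CPM in CDK18KO, 36.1 to 262 CPM in DKO and 13.9 to 37.8 CPM in WT. DESeq2 called 2 mesothelial genes lower in CDK18KO and 3 higher in DKO. Without CDK18KO 1, 2 of the 4 were again lower in CDK18KO (median -2.73), with 0 called by edgeR. Krt19 is on both the mesothelial and the cholangiocyte list, so their counts and sums are not separate. CPM are shares of a library, and the part of these cell types in the marker values was not tested.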

How the data were processed

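Per the labels' protocols, libraries were prepared from 300.0 ng of RNA by poly(A)-primed, strand-keeping synthesis with a 6-base molecular identifier. The deposited table holds raw counts of 77981 gene symbols in each of the 14 libraries. The submitters' processing notes list STAR 2.7.11a, UMI-tools 1.1.2, DESeq2 1.32.0, FastQC and HTSeq 1.99.2, and name mm10 and GRCh38 without saying what each was used for. Whether molecular identifiers were collapsed, the annotation and the strand setting are not given in the sources used here. Each count is taken as 1 read, and counting limits cover counting error only.

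Differences were tested with edgeR (4.0.16, in R 4.3.3) by its quasi-likelihood F test. All 14 libraries entered 1 fit with TMM factors. Genes low in counts were removed by group (minimum count 10), and p was adjusted by Benjamini-Hochberg over the 13997 genes left, which held 99.0% of counts. A call is an adjusted p under 0.05, two-sided. SE is the size of the log2 fold change divided by the square root of F, and the common biological coefficient of variation was 0.598. Des, removed with the low genes, was tested by exact permutation of log2(CPM + 1). The scripts were tested on simulated data. DESeq2 (1.42.0) and limma (3.58.1) were alternatives, and an NA of DESeq2 was left as NA. Further alternatives were a prior count of 0.5, upper-quartile or RLE factors, a stricter filter (1 CPM in 4 libraries) or none, a replicate block, a Y-linked covariate, a fit of only the groups compared, and leaving out each library in turn.

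The markers and lists were chosen with earlier results of these data known. Named are the markers, Cdk18, up to 4 genes of each list described with the smallest p in any comparison with WT, and the 3 genes most alike in rank to each tested marker, of which 1 is not reported here. Positions are from GENCODE M21 (GRCm38). Replicate numbers were not taken as pairs. Deviations from group means of same-numbered libraries correlated at -0.23 to 0.65 (median 0.04, 13 pairs). Other pairs gave -0.60 to 0.67 (median -0.04, 52 pairs). Libraries numbered 2 gave 0.58, 0.30 and 0.45, so pairing was not settled, and the replicate block is given as an alternative. No libraries of a group agreed within sampling noise, since pairs differed by 16.8 to 74.6 times the sampling variance.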

Additional observations from a re-analysis of the deposited data

Results flagged for a closer look

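Of 69 groups of values examined (each marker and each list sum except that of Y-linked genes, in each genotype), 10 held a library that stood apart from the rest of its group by Dixon's criterion. Each was the highest of its group. The criterion's rate of about 1 in 20 is for normally distributed, separate values. These were untransformed CPM, and markers also enter list sums, so the number flagged is not compared with that rate. CDK18KO 1 accounted for 6 of them. Acta2 was at 29.8 CPM in CDK18KO 1 and 0.991 to 4.79 CPM in the other CDK18KO libraries. Reln was at 9.63 CPM there against 0 to 2.13 CPM, Dcn at 153 CPM against 5.28 to 38.3 CPM, and Lum at 21.4 CPM against 3.63 to 6.91 CPM. The summed CPM of small leucine-rich proteoglycans was 257 in CDK18KO 1 against 16.5 to 61.2, and that of cholangiocyte genes 302 against 26.4 to 52.8. Pdgfra, Pdgfrb and Postn of CDK18KO 1 were also the highest of their group but were not singled out by the criterion.

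Reln was at 19.4 CPM in DKO 1 and 4.21 to 5.00 CPM in the other DKO libraries. Mesothelial genes summed to 262 CPM in DKO 4 and 36.1 to 61.4 CPM in the other DKO libraries. Des was at 1.75 CPM in WT 3, from 6 counts, and 0 to 0.412 CPM in the other WT libraries. PDGF and TGF-β genes summed to 1254 CPM in WT 5 and 618 to 697 CPM in the other WT libraries.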

How the results depend on the processing

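The fold changes of Pdgfra, Pdgfrb and Postn in the comparisons with WT were negative under every alternative run, but their side of the threshold was not stable. With 1 library left out, CDK18KO over WT ran from -3.27 to -2.01 for Pdgfra and -3.04 to -2.32 for Pdgfrb. Postn ran from -4.17 to -3.15. The edgeR adjusted p ran from 0.0474 to 0.408, 0.0603 to 0.408 and 0.0552 to 0.403, in that order. Leaving out CDK18KO 1 gave the lowest fold change of each. For CDK18KO over WT, markers called (0) numbered 3 by DESeq2, 1 without a filter on low counts (Postn, edgeR adjusted p = 0.0377) and 0 to 1 over fits that left out 1 library. For DKO over WT they numbered 1 by DESeq2 and 0 over those fits, and for DKO over CDK18KO 0 over those fits. For the mean of both knockout groups they numbered 3 by DESeq2, 2 without a filter and 0 over those fits. All genes called in CDK18KO over WT (1) numbered 856 by DESeq2, 173 without a filter, 297 with the replicate block, 0 by limma voom, 0 with only the groups compared, 0 with the Y-linked covariate, 0 without the 3 libraries high in Y-linked genes and 0 to 74 over leave-one-out fits. In DKO over WT (1) the counts were 1033, 252, 438, 0, 0, 0 and 0 in the same order, and 0 to 1 over leave-one-out fits. In DKO over CDK18KO (0) they were 84 by DESeq2, 42 without a filter and 0 to 2 over leave-one-out fits. For the mean of both knockout groups (13) they were 1478 by DESeq2, 716 without a filter, 20 with a stricter filter, 752 with the replicate block, 0 with the Y-linked covariate, 0 without the 3 libraries high in Y-linked genes and 0 to 32 over leave-one-out fits.

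The replicate block called 0 markers in each comparison, with edgeR adjusted p of 0.0626 for Pdgfra, 0.0717 for Pdgfrb and 0.102 for Postn in CDK18KO over WT. Fold changes that had not been called turned sign in some fits. With the Y-linked covariate, DKO over WT was 0.99 for Acta2 and 0.82 for Lum, DKO over CDK18KO was 0.0934 for Lrat (-1.31 with all libraries and no covariate), and the mean of both groups over WT was 0.38 for Acta2, 0.29 for Dcn and 0.37 for Lum. Limma voom gave 0.47 for Lrat in DKO over CDK18KO. Without the 3 libraries high in Y-linked genes, an alternative chosen after seeing the data, DKO over WT was 0.0259 for Acta2 and -0.0011 for Reln. Over leave-one-out fits, Acta2 ran from -1.77 to 0.0108 in CDK18KO over WT, -0.43 to 0.15 in DKO over WT and -0.21 to 1.57 in DKO over CDK18KO. DKO over WT ran from -0.35 to 1.08 for Reln and -0.35 to 0.0718 for Lum. The mean of both groups over WT ran from -0.81 to 0.34 for Dcn, -1.12 to 0.27 for Reln and -0.0601 to 0.48 for Rgs5. None of these sign changes belonged to a called value, and the cause was not tested. Lrat had too few counts for the filter in some of these fits, and the fit with only the groups compared cannot give the mean of 2 groups. At 1442417 to 6068209 counts, a gene with 3 counts stood at 0.412 to 2.31 CPM, which limits Des, Lrat and Reln. It also limits the low values of other markers. Pdgfra had 2, 5 and 4 counts in CDK18KO 2, 4 and 5. In CDK18KO 4 and 5, Pdgfrb had 0 and 3 counts, Postn 1 and 5, and Acta2 3 and 4. In DKO 2, Postn had 3 counts and Acta2 2.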
